A study of Homo sapiens with 12 samples.

Results

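MDM2 and CDK4 lie on the long arm of chromosome 12 and are followed here together with 8 of their neighbours: TSPAN31 beside CDK4, and RAP1B, NUP107, SLC35E3, CPM, YEATS4, FRS2 and CCT2 beside MDM2. The 10 genes were taken by name from the count tables, out of 19923 protein-coding genes, because their RNA was higher in NGP than in SK-N-BE2. That comparison of the DMSO libraries is therefore given below as a description with no test, and the tests concern the STM2457 libraries and the responses to STM2457. SK-N-BE2 and NGP are established human neuroblastoma cell lines, both labelled as MYCN-amplified and wild type in genotype. Each line was kept for 6 days with DMSO, the solvent control, or with STM2457, an inhibitor of METTL3, the methyltransferase behind N6-methyladenosine in messenger RNA. The dose was 12 µM in SK-N-BE2 and 1 µM in NGP. Each of the 4 groups had 3 replicates, and no label says whether these came from separate cultures, so the p-values measure the spread between these libraries, which may be technical. Each line is a single cell line, and the file headers name a different sequencing run for each, so between lines the cells, the run and the dose cannot be told apart.

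CDK4 is the kinase that, with a D-type cyclin, phosphorylates the retinoblastoma protein and so lets a cell pass from G1 into S phase. MDM2 is a ubiquitin ligase, an enzyme that marks other proteins for degradation. In several tumour types, neuroblastoma among them, this stretch of chromosome 12 can be present in many extra copies, and the genes that lie between or beside CDK4 and MDM2 are then copied along with them. NGP is known from other work as a line with extra copies of MDM2 and CDK4. The files hold RNA counts, and DNA copy number was not analysed here.

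The depth was 47242379 to 58159937 counted reads per library. All 10 genes passed the filter on low counts, as did 14731 of the 19923 genes over all libraries. Levels are given in cpm, in lower case: reads per 1000000 reads of the library after TMM adjustment, a scaling that equalises most genes between libraries. CPM in capitals always means the gene of carboxypeptidase M. In SK-N-BE2, METTL3 RNA was at 54.0 ± 3.26 cpm (SD, n = 3) in DMSO and 79.5 ± 1.43 (SD, n = 3) in STM2457. In NGP it was at 40.4 ± 3.59 and 77.7 ± 2.46 cpm (SD, n = 3 each). STM2457 blocks the enzyme and does not remove its RNA, so this does not check the labels. Of 8 neuroblastoma markers, 7 were at 1 cpm or more in every group, and TH, an enzyme of catecholamine synthesis, was below it in NGP, at 0.512 in DMSO. The summed level of 5 fibroblast genes in SK-N-BE2 was 105 to 120 cpm in DMSO and 191 to 205 in STM2457, and in NGP 56.8 to 69.8 and 275 to 309. Of the 5, 3 were at 1 cpm or more in NGP DMSO and 4 in the other groups, and COL1A2 was at or below 0.117 in all libraries. The 3 Schwann cell genes summed to at most 2.66 cpm and the 3 leukocyte genes to between 4.18 and 8.60. The fibroblast genes moved with the treatment, and their part in the responses below was not tested.

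The promoter of CDK4 is shown because both lines are labelled as MYCN-amplified. The E-box CACGTG is the site at which MYC and MYCN proteins are known to bind, and the 250 bases before the most upstream RefSeq start (GRCh38.p14) held it in 2 of the 10 genes, 3 times in CDK4 and 1 time in SLC35E3. Among 27305 genes with such a window, 6.46% held it and 0.084% held 3 or more. It reads the same on both strands. The CDK4 window lies inside the annotated span of the gene, which reaches 57756013 on the minus strand, so annotated exons also lie upstream of it. The part before the CDK4 exons that overlap the window, chr12:57752448-57752560 on the minus strand, holds the E-box in capitals at 2 places.
CDK4: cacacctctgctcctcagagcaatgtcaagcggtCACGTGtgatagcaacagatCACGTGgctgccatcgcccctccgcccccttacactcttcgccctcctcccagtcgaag
The GC box GGGCGG, on either strand, was in 6 of the 10 windows against 42.2% of all genes, and CCAAT in 5 of 10 against 33.03%. A match is a string of letters and says nothing about binding in these cells.

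In DMSO, each of the 10 genes was higher in NGP, and together they made up 1.05% of all counted reads in NGP against 0.0679% in SK-N-BE2. Their summed level was 10251 ± 428 cpm (SD, n = 3) in NGP and 690 ± 33.8 (SD, n = 3) in SK-N-BE2. Since these are bulk RNA samples, more cells with a transcript and more transcript per cell cannot be told apart.

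CDK4 (chr12:57747727-57756013, minus strand) was at 112, 132 and 109 cpm in the 3 SK-N-BE2 DMSO libraries and at 2055, 1626 and 1901 in those of NGP. The lowest NGP library was thus far above the highest of SK-N-BE2, and the ratio of the fitted means was 15.8, or 3.98 on the log2 scale. CDK4 stood at rank 34 of 19923 genes by level per length in NGP and at rank 972 in SK-N-BE2. MDM2 (chr12:68808177-68850686, plus strand) was at 104, 103 and 94.7 cpm in SK-N-BE2 and at 853, 1057 and 994 in NGP, with no overlap and a log2 ratio of 3.27. TSPAN31 (chr12:57738013-57750219, plus strand) encodes a tetraspanin, a membrane protein, and was at 18.1, 19.3 and 15.7 cpm in SK-N-BE2 against 278, 244 and 258 in NGP, a log2 ratio of 3.87. TSPAN31 and CDK4 run toward each other and share 1369 exon bases at their ends (first and last shared base 57747727 and 57749795), which is 26.1% of the exon length of TSPAN31 and 44.2% of that of CDK4. The reads were counted without strand, so reads from the shared bases cannot be assigned to either gene and the values of both are uncertain. MDM2 and CPM also overlap tail to tail, by 133 bases, 0.989% of MDM2 exons and 1.77% of CPM exons.

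CCT2 (chr12:69585426-69601570, plus strand) encodes a subunit of the CCT chaperonin, the ring that folds actin and tubulin, and had the highest level of the 10 in every group. It was at 273, 275 and 246 cpm in SK-N-BE2 and at 4733, 3953 and 4181 in NGP, a log2 ratio of 4.02, and stood at rank 22 by level per length in NGP. NUP107 (chr12:68686951-68745809, plus strand) encodes a nucleoporin of the Y complex, the scaffold of the nuclear pore. It was at 58.2, 57.6 and 54.4 cpm in SK-N-BE2 and at 1174, 1211 and 1211 in NGP, a log2 ratio of 4.40. YEATS4 (chr12:69359710-69390870, plus strand), also called GAS41, encodes a reader of acetylated histones that sits in the SRCAP and TIP60 chromatin complexes. It was between 15.99 and 17.7 cpm in SK-N-BE2 and at 551, 409 and 477 in NGP, a log2 ratio of 4.82. In none of these did a library of one line reach the range of the other.

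FRS2 (chr12:69470349-69579789, plus strand) encodes the docking protein that carries signals from FGF receptors to RAS and ERK. It was at 59.5, 49.3 and 53.7 cpm in SK-N-BE2 and at 263, 476 and 435 in NGP, and its log2 ratio of 2.85 was the smallest of the 10. NGP replicate 1 was low for FRS2 and high for YEATS4, CCT2 and CDK4, so this library stood apart from the other NGP DMSO libraries. RAP1B (chr12:68610855-68671901, plus strand), a small GTPase of cell adhesion, was at 41.6 to 46.2 cpm in SK-N-BE2 and 421 to 512 in NGP, a log2 ratio of 3.42. SLC35E3 (chr12:68746125-68793964, plus strand), a member of the nucleotide sugar transporter family, was at 15.9 to 18.1 and 289 to 313, a log2 ratio of 4.15. CPM (chr12:68842197-68971570, minus strand) encodes carboxypeptidase M, a membrane enzyme that trims basic residues from peptides. It was nearly silent in SK-N-BE2, with 20, 27 and 24 reads, or 0.350, 0.543 and 0.459 cpm, and was at 27.7, 28.5 and 29.7 in NGP. Its log2 ratio of 5.99 was the largest of the 10 and rests on these few SK-N-BE2 reads.

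**Figure D1:**
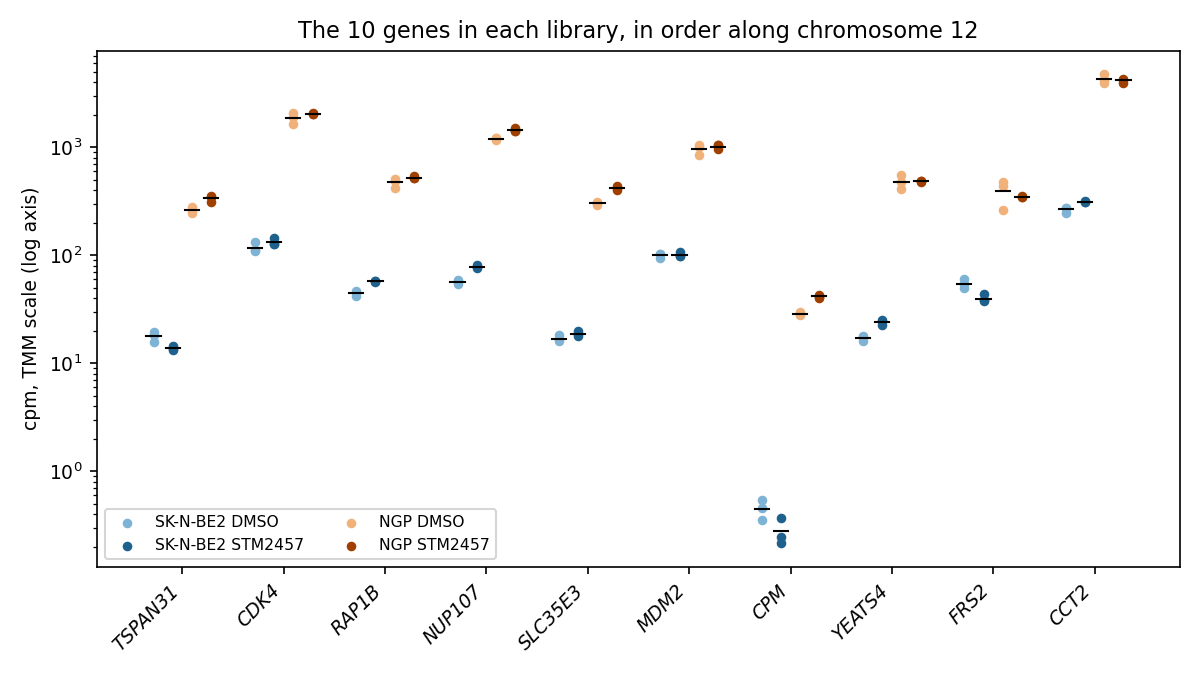
Level of each of the 10 genes in the 12 libraries, in cpm on the TMM scale (log axis), with genes in order along chromosome 12. Points are libraries, coloured by group, and black lines are means of 3 libraries. For all 10 genes the NGP points lie above the SK-N-BE2 points, while treated and control points of a line lie close together.

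The 10 log2 ratios had a median of 4.001. With at least 4-fold and no overlap between the DMSO libraries, 10 of 10 met the mark, against 7.56% of the 13094 genes at 1 cpm or more in a line. With at least 2-fold the share of all genes was 16.6%, and 19.1% were as much higher in SK-N-BE2. The genes were chosen on this contrast, so nothing is read from their count. Among the 13094 genes, 199 had a larger ratio than CPM and 691 a larger one than FRS2, so none of the 10 was at the extreme of the comparison of these lines.

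Levels can be compared between genes only per length. In reads per kilobase of exon on the same scale (RPKM), the order in NGP DMSO was CCT2 at 1014, CDK4 at 601, YEATS4 at 269, NUP107 at 148, MDM2 at 72.0, FRS2 at 54.0, TSPAN31 at 49.5, RAP1B at 28.0, SLC35E3 at 12.9 and CPM at 3.80. The neighbours MDM2 and FRS2, and FRS2 and TSPAN31, overlapped between libraries, and the other neighbours did not. In SK-N-BE2 DMSO the order began in the same way, with CCT2 at 62.6, CDK4 at 38.0 and YEATS4 at 9.55. There FRS2 at 7.48, MDM2 at 7.46 and NUP107 at 7.0 overlapped with their neighbours in the order, and the others did not. Exon length counts every annotated exon, so the values of genes with long alternative ends, such as SLC35E3 and RAP1B, are low on this scale.

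Along the chromosome, many of the genes higher in NGP stood in blocks, while others lay outside them. In the 20 Mb between positions 55000000 and 75000000 of chromosome 12 (GRCh38), 45 of 122 genes at 1 cpm or more were at least 2-fold higher in NGP with no overlap, 36.9% against 16.6% of all genes, and 13 were higher in SK-N-BE2. The members are among the 45, and without them the count was 35 of 112, 31.2%. The 2 blocks described next hold 26 of the 45, members included, and their bounds were chosen after the values were seen.

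The block around CDK4 ran from AGAP2 to TAFA2 (chr12:57723761-62279150, 4.555 Mb) and held 14 genes at 1 cpm or more, of which 14 were at least 4-fold higher in NGP, with a median log2 ratio of 2.89. Without the members, 12 of 12 were at least 4-fold higher, with a median of 2.84. OS9, the gene just before it, had a log2 ratio of -0.16, and AGAP2, a GTPase-activating protein, one of 2.93. Next to CDK4 on the other side, MARCHF9, a ubiquitin ligase, had a ratio of 2.58, CYP27B1, which makes active vitamin D, one of 2.45, and METTL1, the tRNA m7G methyltransferase, one of 3.85. CTDSP2, a phosphatase, was at 179 ± 8.78 cpm (SD, n = 3) in SK-N-BE2 and 1283 ± 90.3 (SD, n = 3) in NGP. ATP23 and LRIG3 had the largest ratios here, 5.69 and 5.36, with LRIG3 at 0.342 cpm in SK-N-BE2. METTL1, CTDSP2, ATP23 and LRIG3 were picked after their values were seen.

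The block around MDM2 ran from RAP1B to KCNMB4 (chr12:68610855-70434292, 1.823 Mb) and held 12 such genes. All 12 were at least 2-fold higher in NGP and 11 at least 4-fold, with a median log2 ratio of 3.87. Most of them are members, which were chosen for higher levels in NGP. Without the members 4 genes remained, 4 at least 2-fold and 3 at least 4-fold higher, with a median of 3.62. CPSF6, a cleavage and polyadenylation factor between CPM and YEATS4, was the one below 4-fold, with a ratio of 1.85 and levels of 213 ± 7.65 and 768 ± 124 cpm (SD, n = 3 each). RAB3IP followed CCT2 with a ratio of 4.56, and CNOT2, a subunit of the CCR4-NOT deadenylase named after its value was seen, had one of 3.72.

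Between the blocks the ratio fell back toward 0. Over 6.072 Mb from USP15 to MDM1, 18 genes at 1 cpm or more had a median log2 ratio of 0.11, with 2 higher and 2 lower in NGP by at least 2-fold. TBC1D30 was the gene there with at least 4-fold, at 3.09, and MDM1, the last before RAP1B, was at 1.31. Just after KCNMB4 the sign changed. PTPRB and PTPRR, which encode receptor phosphatases and were picked after their values were seen, had log2 ratios of -3.32 and -6.67. Before AGAP2, 15 of 67 genes were at least 2-fold higher in NGP, 22.4%, with a median of 0.43. PMEL, TIMELESS, PRIM1, TAC3, NEMP1, INHBC, INHBE, ARHGAP9 and B4GALNT1 were the 9 genes of that stretch at 4-fold or more, from 2.099 in TIMELESS to 5.32 in INHBC.

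**Figure D2:**
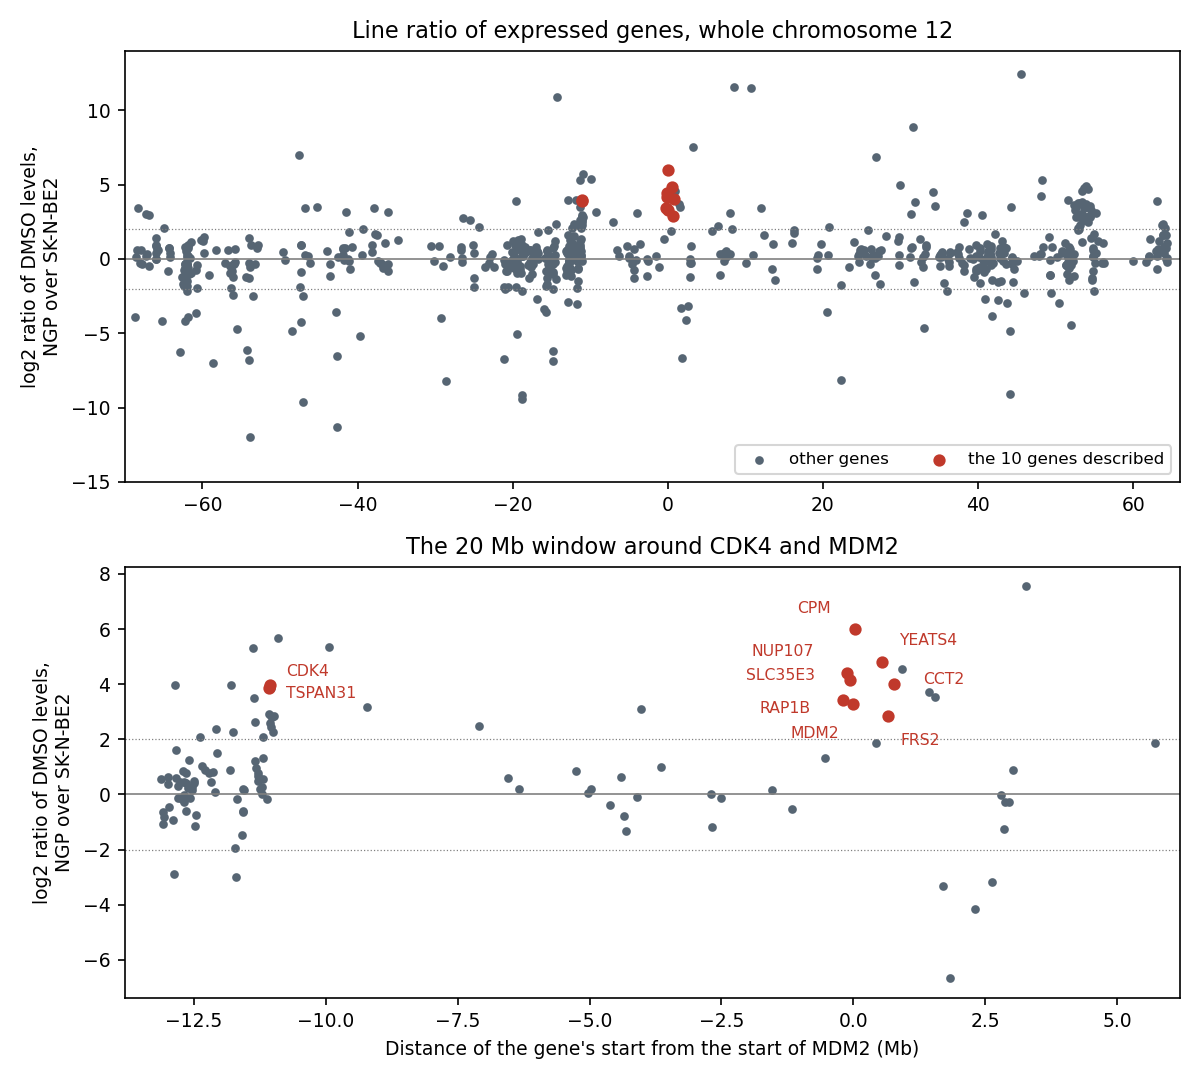
Log2 ratio of DMSO levels, NGP over SK-N-BE2, of each gene with at least 1 cpm in a line, against the distance of its start from that of MDM2 in Mb, over chromosome 12 (top) and the 20 Mb window (bottom). Dotted lines mark 4-fold. The 10 genes (red) sit at 2.85 to 5.99 in 2 groups, the 18 genes between the blocks have a median of 0.11, and a further group of high ratios lies more than 50 Mb beyond MDM2.

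Levels of partner genes are set beside those of the 10 as a description. The 10 were chosen for higher DMSO levels in NGP, and the partners were not. Higher ratios of the 10 to their partners in NGP therefore follow largely from that choice. In SK-N-BE2 DMSO, CCT2 at 62.6 ± 3.78 RPKM (SD, n = 3) was 0.546 times the median of the other 7 CCT subunits, which ranged from 48.1 for TCP1 to 173 for CCT3. In NGP, CCT2 was at 1014 ± 94.7 RPKM (SD, n = 3), 8.99 times their median, and the others ranged from 70.9 for CCT5 to 259 for CCT3. None of the 7 others was at least 2-fold different between the lines, and their log2 ratios lay between -0.24 and 0.61. The CCT ring takes each subunit in equal number, which is background and not a measurement of protein here.

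NUP107 showed the same contrast with the other 9 nucleoporins of the Y complex. It was at 7.0 ± 0.256 RPKM (SD, n = 3) in SK-N-BE2, 0.810 times their median, and at 148 ± 2.59 (SD, n = 3) in NGP, 9.07 times their median. Here 3 of the 9 others were also at least 2-fold higher in NGP: NUP160 with a log2 ratio of 2.01, NUP85 with 1.56 and SEC13 with 1.54. Among 16 other subunits of the SRCAP and TIP60 complexes of YEATS4, 2 were at least 2-fold higher in NGP, ING3 at 1.17 and ACTL6A at 1.00, and none was as much higher in SK-N-BE2. Of all genes, 16.6% were at least 2-fold higher in NGP and 19.1% in SK-N-BE2. Nothing particular to either list is read from these counts.

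**Figure D3:**
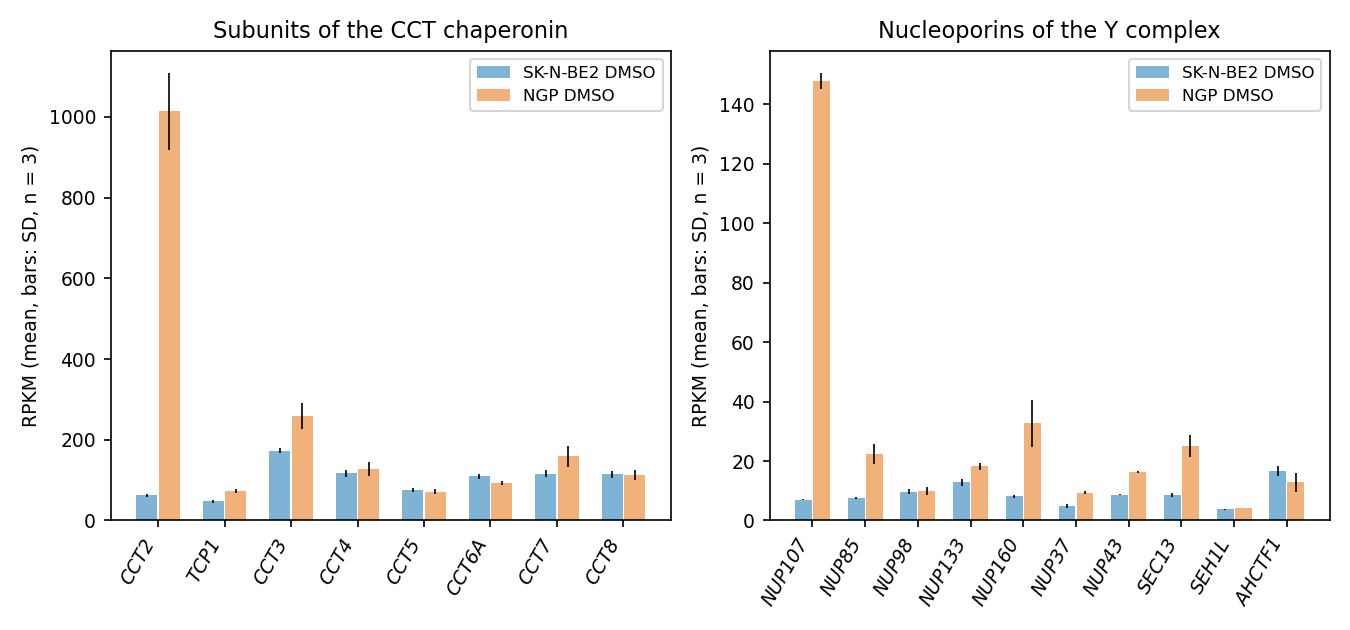
Mean RPKM of the CCT chaperonin subunits (left) and of the Y-complex nucleoporins (right) in DMSO libraries of SK-N-BE2 and NGP, with SD over 3 libraries. In NGP, CCT2 at 1014 and NUP107 at 148 stand above their partners, whose highest values are 259 (CCT3) and 32.7 (NUP160).

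The kinase CDK6 can take the place of CDK4 with the same cyclins. Its level did not set the lines apart, with a log2 ratio of 0.09, so the ratio of CDK4 to CDK6 in RPKM was 0.958 ± 0.206 (SD, n = 3) in SK-N-BE2 and 15.6 ± 7.73 (SD, n = 3) in NGP. The NGP libraries ranged from 9.53 to 24.3 in this ratio. Of the D cyclins, CCND1 had a log2 ratio of 0.70 and CCND3 of 0.45, and CCND2 was at 0.0881 and 0.327 cpm. Among the inhibitors, CDKN2C was lower in NGP by 4.82 on the log2 scale (56.0 against 1.98 cpm) and CDKN2D by 2.25, while CDKN2A was higher, at 2.31. Of 16 genes on this list, 15 were at 1 cpm or more, with 5 at least 2-fold higher in NGP and 3 higher in SK-N-BE2. The shares of all genes were 16.6% and 19.1%, and nothing particular to the list is read from its counts.

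MDM4, a relative of MDM2, was at 114 cpm in SK-N-BE2 against 115 in NGP. The ratio of MDM2 to MDM4 in RPKM was 0.723 ± 0.0731 (SD, n = 3) and 6.97 ± 0.547 (SD, n = 3).

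Around FRS2, 3 of 12 genes were at least 2-fold higher in NGP, the FGF receptors FGFR2, FGFR3 and FGFR4, and 3 were higher in SK-N-BE2, SPRY2, SPRY4 and DUSP6, which dampen ERK signalling. The shares of all genes were 16.6% and 19.1%, and nothing particular to this list is read from its counts. FGFR3 had a log2 ratio of 4.55 (0.823 and 19.5 cpm). The ERK phosphatase DUSP6 had a ratio of -3.58 and the feedback inhibitor SPRY4 one of -3.50. A list of 9 genes around RAP1 holds RAP1A, itself a RAP1 protein, and regulators. Of the 9, 1 was at least 2-fold higher in NGP and 2 in SK-N-BE2, with a median log2 ratio of -0.11. The largest were SIPA1L1, which switches RAP1 off, at -2.17, RAPGEF5, which switches it on, at 1.44, and RAP1GAP, which also switches it off, at -1.37. Of others that switch it on, RAPGEF1 was at 0.71 and RAPGEF2 at -0.58.

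The STM2457 libraries, which the choice of genes did not use, gave a test of the difference between the lines. All 10 genes were called higher in NGP by edgeR's quasi-likelihood test at an adjusted p under 0.05, against 65.9% of 14731 genes called in either direction and 32.5% called higher and 33.5% lower in NGP. Their median log2 ratio was 4.08, and that of all genes was 0.00. The ratios ran from 3.13 ± 0.18 (SE) for FRS2 (adjusted p = 1.3e-09) to 7.21 ± 0.18 for CPM (adjusted p = 4.45e-13). CDK4 was at 145, 128 and 127 cpm in SK-N-BE2 and at 2018, 2078 and 2042 in NGP, a log2 ratio of 3.94 ± 0.12 (SE). MDM2 was at 98.3, 107 and 97.5 cpm in SK-N-BE2 and at 1035, 952 and 1036 in NGP, a log2 ratio of 3.32 ± 0.10 (SE). No library of one line reached the range of the other in any of the 10. These are the same cell lines as in DMSO, so the comparison repeats the difference in other libraries and not in other cells. In the block around CDK4 14 of 14 genes were called higher in NGP in these libraries, and in the block around MDM2 12 of 12. These counts include the 10 genes again, and the block bounds were set after the DMSO values of the same lines were seen. Nothing further is therefore read from them.

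The response to STM2457 compares each line's treated libraries with its own DMSO libraries, which are also the DMSO libraries on which the genes were chosen. In SK-N-BE2, 6 of the 10 genes were called by edgeR's quasi-likelihood test at an adjusted p under 0.05, against 54.7% of 14013 genes, with 4 higher (26.9% of all genes) and 2 lower (27.8%). NUP107, YEATS4, RAP1B and CCT2 rose and FRS2 and TSPAN31 fell, each by less than 1.5-fold. The median log2 change of the 10 genes was 0.13, and that of all genes was -0.02. This share is near that of all genes and is no result about the 10.

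NUP107 rose in SK-N-BE2 from 58.2, 57.6 and 54.4 cpm in DMSO to 77.4, 81.0 and 75.3 in STM2457, a log2 change of 0.42 ± 0.08 (SE, adjusted p = 0.000526). The treated libraries were all above the controls. YEATS4 rose from a highest control library of 17.7 to 24.6, 22.7 and 25.3 cpm, by 0.47 ± 0.10 on the log2 scale (adjusted p = 0.00115). RAP1B rose from 41.6 to 46.2 cpm to between 56.1 and 57.9, by 0.34 ± 0.08 (adjusted p = 0.00341). FRS2 fell from 59.5, 49.3 and 53.7 cpm to 37.2, 43.6 and 38.1, a log2 change of -0.49 ± 0.10 (adjusted p = 0.00083), with no overlap. TSPAN31 fell from 18.1, 19.3 and 15.7 cpm to 13.5, 13.4 and 14.6, a log2 change of -0.40 ± 0.11 (adjusted p = 0.00767). CCT2 was at the edge of the test, at 273, 275 and 246 cpm in DMSO and 307, 320 and 312 in STM2457, a log2 change of 0.20 ± 0.08 (adjusted p = 0.0491). Its call was lost in 7 of 14 alternative settings, among them 4 of 6 that left out a library, with an adjusted p of up to 0.147.

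MDM2 and CDK4 themselves were not called in either line. MDM2 in SK-N-BE2 was between 94.7 and 104 cpm in DMSO and between 97.5 and 107 in STM2457, and the 95% interval of its log2 change was -0.20 to 0.14. In NGP its libraries overlapped again, and the interval was -0.22 to 0.28. CDK4 had a log2 change of 0.14 in SK-N-BE2 (interval -0.06 to 0.34) and of 0.11 in NGP (interval -0.14 to 0.36). A change of 1.5-fold (0.58 on the log2 scale) lies outside each of these intervals, and changes within an interval remain possible. SLC35E3 and CPM were also not called in SK-N-BE2. CPM there had 20, 11 and 13 reads in STM2457, and its log2 change of -0.73 had an interval of -1.66 to 0.21.

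In NGP, 3 of the 10 genes were called, against 41.7% of 13610 genes, and each was higher with STM2457, against 19.4% of all genes called higher and 22.2% lower. At an unadjusted p under 0.05 there were 4, and DESeq2 also called 4. The median log2 change of the 10 was 0.11, and that of all genes was -0.03. CPM rose from 27.7, 28.5 and 29.7 cpm to 40.3, 42.6 and 41.4, by 0.51 ± 0.10 on the log2 scale (SE, adjusted p = 0.00368). SLC35E3 rose from 289, 301 and 313 cpm to 414, 432 and 402, by 0.44 ± 0.09 (adjusted p = 0.00434). For both genes the treated libraries lay well above the controls. TSPAN31 rose from 278, 244 and 258 cpm to 353, 312 and 344, by 0.35 ± 0.10 (adjusted p = 0.0201), a call lost in 4 of 6 settings without 1 library, with an adjusted p of at most 0.106.

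NUP107 in NGP was at 1174, 1211 and 1211 cpm in DMSO and 1424, 1418 and 1490 in STM2457. The groups did not overlap, and its log2 change of 0.24 ± 0.09 (SE) missed the threshold (adjusted p = 0.0518) but passed it in 5 of 14 alternative settings. FRS2 in NGP was at 342, 344 and 354 cpm with STM2457, inside the range of the DMSO libraries that replicate 1 widened. Without NGP DMSO replicate 1, FRS2 was called lower, with a log2 change of -0.42 (adjusted p = 0.000414), and 5 of the 10 genes were called in place of 3. YEATS4, CCT2 and RAP1B were not called in NGP, and their log2 changes were -0.01, -0.07 and 0.11.

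**Figure D4:**
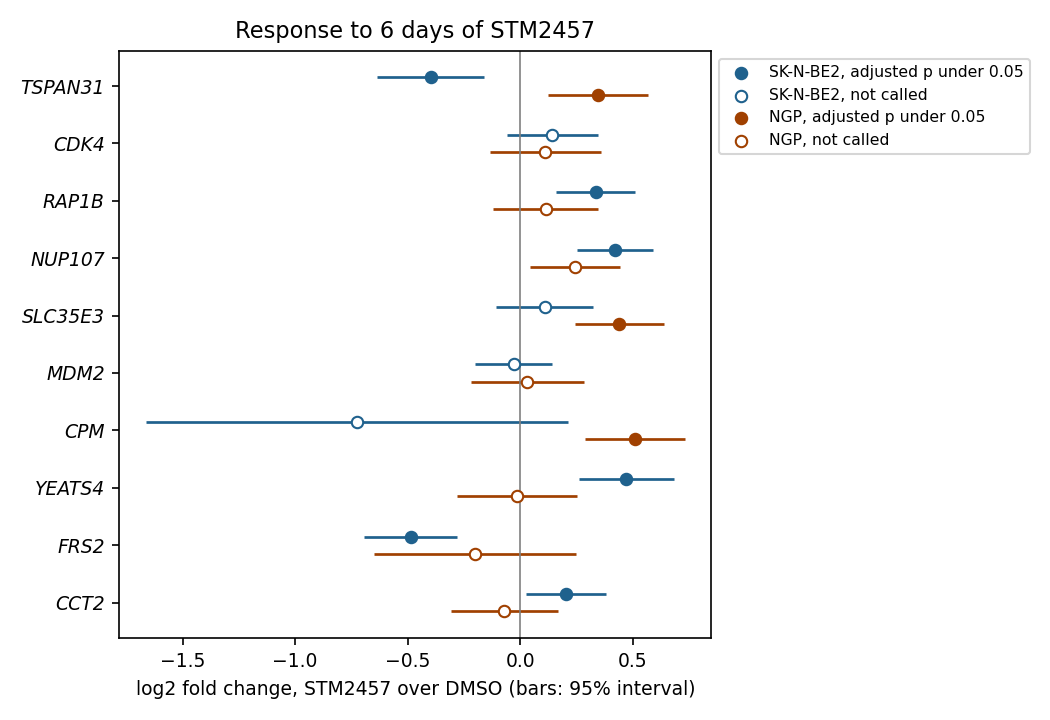
Log2 fold change from DMSO to STM2457 of each of the 10 genes in SK-N-BE2 and NGP, with 95% intervals from edgeR fits of 6 libraries per line. Filled points passed an adjusted p of 0.05. MDM2 and CDK4 stay near 0 in both lines, TSPAN31 is at -0.40 in SK-N-BE2 and at 0.35 in NGP, and CPM in SK-N-BE2 has the widest interval.

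The difference between the responses was tested over all 12 libraries as a contrast of the 4 group means, NGP minus SK-N-BE2. It was called for 4 of the 10 genes, against 30.9% of 14731 genes, 3 with the higher response in NGP (13.9% of all genes) and 1 with the lower (17.0%). TSPAN31 had the clearest difference, 0.73 ± 0.13 on the log2 scale (SE, adjusted p = 0.000979), with a called fall in SK-N-BE2 and a called rise in NGP. AGAP2, whose exons on the other strand also overlap TSPAN31, went the other way, with 1.04 in SK-N-BE2 and -0.44 in NGP, both called. The deposited annotation places 29.7% of the exon length of TSPAN31 under exons of CDK4 or AGAP2, and the part of the shared reads in this difference was not tested. CPM differed by 1.21 ± 0.26 (adjusted p = 0.00329), a value that rests on 11 to 27 reads per library in SK-N-BE2. YEATS4 differed by -0.50 ± 0.14 (adjusted p = 0.0179), with a called rise in SK-N-BE2 and no call in NGP. That call was lost without SK-N-BE2 DMSO replicate 1 (-0.43, adjusted p = 0.0515). SLC35E3 differed by 0.32 ± 0.11 (adjusted p = 0.048), a call lost in 11 of 19 settings.

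For the other 6 genes the difference was not called. That of MDM2 was 0.05 with a 95% interval of -0.23 to 0.33, and that of CDK4 was -0.04 with an interval of -0.37 to 0.28. CCT2 had a difference of -0.29 (interval -0.57 to -0.00, adjusted p = 0.115), RAP1B one of -0.23, NUP107 one of -0.19 and FRS2 one of 0.28.

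Genes of the same block responded in opposite directions. In NGP, RAB3IP, a regulator of RAB GTPases next to CCT2, fell by 2.89 on the log2 scale with STM2457 and MARCHF9, next to CDK4, fell by 1.07, while LRIG3 rose by 1.10, CYP27B1 by 0.88 and CPSF6 by 0.66, all called. In the block around CDK4, 6 of 14 genes were called in NGP, 3 higher and 3 lower, with a median of -0.00. In the block around MDM2, 5 of 12 were called, 4 higher and 1 lower, with a median of 0.07. In SK-N-BE2 the count was 8 of 14 in the block around CDK4, 1 higher and 7 lower, with a median of -0.38. In the block around MDM2 it was 7 of 12, 5 higher and 2 lower, with a median of 0.04. Of all genes, 41.7% were called in NGP and 54.7% in SK-N-BE2, so the total counts in both blocks are near the background. By direction, 26.9% of all genes were called higher and 27.8% lower in SK-N-BE2, with a median of -0.02. The block around CDK4 thus leaned toward lower levels in that line, and the cause was not tested. In NGP 19.4% of all genes were called higher and 22.2% lower. LRIG3 was picked after its value was seen.

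The pathway partners responded as follows. MDM4 fell in SK-N-BE2 (-0.33, adjusted p = 0.00452) and was at 0.40 in NGP (adjusted p = 0.0511). RPL5, a ribosomal protein that binds MDM2, fell by 0.82 in SK-N-BE2 and by 0.72 in NGP.

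Of the CDK4 partners, inhibitors and RB/E2F genes, 11 of 15 were called in SK-N-BE2, 7 higher and 4 lower, and 6 of 16 in NGP, 2 higher and 4 lower, against 54.7% and 41.7% of all genes. CDKN1A, which encodes the CDK inhibitor p21, fell by 2.12 in SK-N-BE2 and by 1.41 in NGP. E2F2 and E2F1, transcription factors of S phase, rose by 1.66 and 1.61 in SK-N-BE2, and CCND1 by 0.64 and CCND3 by 0.60. In NGP, CDKN2C rose by 1.40, from a level of 1.98 cpm, CCND3 fell by 0.40, and CCND1 was not called (-0.16). CDK6 was called in neither line (-0.22 and -0.61), and CDK4 over CDK6 in RPKM was 1.21 ± 0.145 (SD, n = 3) in SK-N-BE2 and 23.0 ± 0.794 (SD, n = 3) in NGP with STM2457.

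The counts for the following lists stand against 54.7% of all genes called in SK-N-BE2 (26.9% higher, 27.8% lower) and 41.7% in NGP (19.4% higher, 22.2% lower), and nothing particular to a list is read from them. Of the other CCT subunits, 2 of 7 were called higher in each line: TCP1 and CCT3 in SK-N-BE2, each by 0.36, and CCT3 by 0.33 and CCT5 by 0.34 in NGP. Of the 9 other Y-complex nucleoporins, 6 rose in SK-N-BE2 beside NUP107, led by NUP85 at 0.89 and with NUP160 and NUP133 at 0.43, and 1 rose in NGP, SEH1L at 0.38. The median of the 9 was 0.31 in SK-N-BE2 and 0.04 in NGP. Of the 16 other SRCAP and TIP60 subunits, 7 were called in each line, 3 higher and 4 lower in SK-N-BE2 and 4 higher and 3 lower in NGP, from -0.49 (EPC2) to 0.55 (MORF4L1) in NGP. ACTL6A rose by 0.50 in SK-N-BE2. Around FRS2, 6 of 12 genes were called in each line, 4 higher and 2 lower. FGFR3 fell by 4.13 in NGP, GAB1 rose by 1.13 in SK-N-BE2 and by 0.84 in NGP, and FGFR1 rose by 0.63 and 0.86. Of the 9 genes around RAP1, 5 were called in SK-N-BE2, 4 higher and 1 lower, led by RAPGEF5 at 0.84, and 2 in NGP, RAP1GDS1 at -0.72 and SIPA1 at 0.65.

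The genes whose pattern over the 12 libraries was most like those of MDM2 and CDK4 also came from chromosome 12. Likeness was the Euclidean distance of centred log2 cpm among 10366 genes with at least 10 cpm in a line, a measure in which the difference between the lines weighs most. For CDK4 the closest were CCT2 at 0.402, METTL1 at 0.418 and CNOT2 at 0.685. For MDM2 they were SBNO1 at 0.481, MLXIP at 0.500 and RAP1B at 0.502. SBNO1 and MLXIP lie over 50 Mb away from MDM2 on the same arm, at chr12:123289109-123364847 and chr12:122078756-122147344, with log2 ratios of 3.58 and 2.99 between the DMSO libraries.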

How the data were processed

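Polyadenylated RNA of 12 libraries was sequenced, 3 for each of 4 groups taken from the titles. Reads of protein-coding genes (GENCODE 33) were counted by the authors over exons sharing a gene name, using featureCounts 2.0.5 with its paired option but neither strand nor pair counting, per the file headers, so a fragment can count 2 times and overlapping genes on opposite strands cannot be separated. The submitters' processing notes name Trimmomatic 0.36, HISAT2 2.1.0, Subread 1.5.3 and GRCh38, and which version made the deposited counts is not given in the sources used here. The deposited values are whole-number counts, not normalized. The 10 genes, the lists, the tests and the alternatives were chosen with earlier results of these data known.

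The 6 libraries of a line were fitted separately with edgeR 4.0.16 in R 4.3.3, and the difference of responses and the comparison of lines over all 12, with filterByExpr (minimum count 10), TMM, the quasi-likelihood test and Benjamini-Hochberg adjustment over all genes (threshold 0.05). The cpm and RPKM values use TMM over 12 libraries. Named beside the 10 genes were, from each of 8 lists, up to 4 called genes with the largest change and up to 3 with the largest DMSO ratio, MDM4, CDK6 and the D cyclins always, the genes flanking each run, up to 12 non-members at 4-fold in order of position, and the 3 genes most like MDM2 and CDK4. Some of these genes, and 2 of the lists, are not reported here. Of the 19923 names, 19033 occur in GENCODE 44, all overlapping there. The fits were tested on simulated counts. Same-numbered replicates deviated together by correlations of -0.0737 to 0.0876, which gave no sign of pairing by number, and the main fits used none. Alternatives were other scaling factors, filters, halved counts, a joint fit, DESeq2 1.42.0, a replicate block and leaving out each library. At this depth counting error is small except for CPM in SK-N-BE2, and 3 libraries per group limit the precision.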

Additional observations from a re-analysis of the deposited data

Results flagged for a closer look

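For 4 of the 10 genes the response to STM2457 differed between the lines by the test of the difference itself (NGP minus SK-N-BE2, log2, edgeR's quasi-likelihood test, adjusted over all genes), against 30.9% of 14731 genes, so the count itself is no result about the 10. TSPAN31 differed by 0.73, having fallen in 3 of 3 SK-N-BE2 libraries below every control and risen in 3 of 3 of NGP above every control. CPM differed by 1.21 with 11 to 27 reads per library in SK-N-BE2, and it was called in 19 of 19 alternative settings, its adjusted p being at most 0.0176. YEATS4 differed by -0.50, and its call was lost without SK-N-BE2 DMSO replicate 1 (-0.43, adjusted p = 0.0515). SLC35E3 differed by 0.32. Dose, line and sequencing run cannot be told apart in these differences.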

How the results depend on the processing

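Over all settings DMSO log2 ratios were 2.68 to 6.12 with a median of 3.90 to 4.07, and 10 of 10 genes were called in STM2457, although the choice of genes fixes the direction in DMSO. The count called in SK-N-BE2 was 5 to 7, and that for the difference 3 to 5. That in NGP was 2 to 5 when a library was left out, with 5 without NGP DMSO replicate 1, and 2 without NGP DMSO replicate 2 or 3 or NGP STM2457 replicate 1 or 3. With the replicate block, 5 were called in SK-N-BE2, 3 in NGP, 3 for the difference and 10 between the lines, with CCT2 in SK-N-BE2 (0.207, adjusted p = 0.0719) and the difference of SLC35E3 (0.32, adjusted p = 0.0968) losing their calls and no other gene of the 10 changing its call, and in each line 1 of 3 numbers correlated best with itself. The NGP response of YEATS4 was 0.00403 with DESeq2 size factors, 0.00403 in DESeq2 and 0.0108 in the joint fit, and -0.115 to 0.0953 without single libraries. Without single libraries the NGP responses of MDM2 and CCT2 were -0.0538 to 0.102 and -0.124 to 0.00381, and the differences of CDK4 and MDM2 were -0.131 to 0.0508 and -0.0172 to 0.118, NGP DMSO replicate 1 setting the end where the sign turned in each. The difference of CDK4 was also 0.0236 with upper-quartile factors, and MDM2 in SK-N-BE2 was 0.00840 in the joint fit. None of these was called, and the cause was not tested. The call of CCT2 in SK-N-BE2 was lost without SK-N-BE2 DMSO replicate 3 or any SK-N-BE2 STM2457 replicate (0.153 to 0.222), and that of the SLC35E3 difference without the same libraries or any NGP library other than DMSO replicate 1 (0.283 to 0.356). CDK4 was called higher in SK-N-BE2 without SK-N-BE2 DMSO replicate 2 (0.24, adjusted p = 0.0258), and RAP1B had a called difference without NGP DMSO replicate 1 (-0.30, adjusted p = 0.0216). The call of CPM in SK-N-BE2 was gained in the joint fit (-0.68, adjusted p = 0.032). The window count, 45 of 122 genes, was 47 of 122 with library totals only. Under other marks it was 36 of 122 at 4-fold or more and 41 of 111 genes at 5 cpm or more.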

Other observations

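A further block of genes higher in NGP lay near the far end of the same arm. From CAMKK2 to KMT5A (chr12:121237675-123409353, 2.172 Mb), 35 of 35 genes at 1 cpm or more were at least 2-fold higher in NGP in DMSO and 32 at least 4-fold, with a median log2 ratio of 2.99. In the STM2457 libraries 35 of 35 were called higher in NGP by edgeR's quasi-likelihood test, with a median of 3.20, against 32.5% of all genes. The block holds ANAPC5, a subunit of the anaphase-promoting complex, at 168 ± 1.79 cpm in SK-N-BE2 and 1668 ± 83.9 in NGP (SD, n = 3 each), BCL7A, a subunit of SWI/SNF complexes, at 86.9 ± 4.48 and 1162 ± 95.8, KNTC1, a kinetochore protein, at 42.6 ± 5.32 and 1159 ± 251, and KMT5A, the histone H4 lysine methyltransferase, at 70.8 ± 0.874 and 701 ± 51.7. These bounds and genes were picked after the values were seen, so nothing further is read from the counts between the lines. With STM2457, 15 of the 35 were called in NGP, 6 higher and 9 lower, and 18 of 34 in SK-N-BE2, 9 higher and 9 lower. These counts are near the shares of all genes called, 41.7% in NGP and 54.7% in SK-N-BE2.

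Over all chromosomes, runs of at least 4 neighbouring genes (at 1 cpm or more) that were each at least 4-fold higher in NGP with no overlap numbered 16, and 11 were higher in SK-N-BE2. The longest in NGP were VPS33A to KMT5A with 18 genes, AGAP2 to TAFA2 with 14 and SETD1B to B3GNT4 with 8, all on chromosome 12, and the longest in SK-N-BE2 was KIRREL1 to TAGLN2 on chromosome 1 with 7. Runs also arose in gene families, such as HOXA5 to HOXA11 on chromosome 7 and PCDHGB1 to PCDHGA6 on chromosome 5. The median DMSO level of the 18 genes was 496 cpm in NGP and 57.3 in SK-N-BE2, and that of the HOXA run 5.62 and 0.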
